A study of Rattus norvegicus with 9 samples.

Results

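Inducible heat shock genes encode molecular chaperones that cells make in larger amounts when their proteins unfold. The 4 genes described here are ENSRNOG00000050647 and ENSRNOG00000045654, which are the neighbouring Hspa1a/Hspa1b pair, ENSRNOG00000000902, which is Hsph1, and ENSRNOG00000023546, which is Hspb1, out of 23426 listed features. They were chosen by name together with their FPKM (sequenced fragments scaled to gene length and library size) after OGD/R against control in these same libraries, so their differences from control are given as a description without a test. The names came with the choice of the genes. No symbols stand beside the identifiers in the files, and a search of the RefSeq gene table gave 0 matches, so the names were not checked and the pair is not resolved into Hspa1a and Hspa1b.

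PC12 cells are a line from a rat pheochromocytoma, a tumour of adrenal chromaffin cells, and were differentiated before use in all groups. RNA was sequenced from 3 groups of 3 libraries. Control libraries came from cells without oxygen-glucose deprivation. OGD/R libraries came from cells kept for 4 h at 1% oxygen without glucose and then for 6 h in normal medium with oxygen. The third group, called mimics below, was transfected with miR-483-5p mimics 48 h before the same OGD/R. The labels name no transfection for the control and OGD/R libraries, so the effect of transfection and that of the miRNA cannot be told apart. The labels do not say whether replicates were separate cultures, so p-values measure only the spread between these libraries, which may be technical. Chromaffin cell markers and the planned lists of other chaperone genes were not looked up, since the identifiers are not paired with symbols.

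The main switch of this response is heat shock factor 1, which is held inactive by chaperones, is released when unfolded proteins occupy them, and then binds heat shock elements near the start of its target genes. These elements are repeats of the unit GAA in alternating orientation. Hspa1a and Hspa1b encode the stress-inducible HSP70, which binds and refolds unfolded proteins. Hsph1 encodes HSP105, a large relative that helps HSP70 exchange its nucleotide and holds unfolded proteins in solution. Hspb1 encodes a small heat shock protein that binds unfolding proteins without ATP. Ischemia and reperfusion of nervous tissue are known to raise inducible HSP70.

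The windows of 250 bases before the annotated starts of Hspa1a, Hsph1 and Hspb1 are printed here because heat shock elements are the known binding sites of the factor that switches such genes on. They are from RefSeq (build GRCr8), which held a start window for these 3 of the 4 symbols, and are written 5′ to 3′ on the strand of the gene. Capitals mark heat shock elements of 2 units, searched as GAANNTTC and TTCNNGAA, each of which reads the same on both strands. The windows are chr20:3859506-3859755 on the plus strand for Hspa1a, chr12:10427118-10427367 on the plus strand for Hsph1, and chr12:26432302-26432551 on the minus strand for Hspb1.
Hspa1a: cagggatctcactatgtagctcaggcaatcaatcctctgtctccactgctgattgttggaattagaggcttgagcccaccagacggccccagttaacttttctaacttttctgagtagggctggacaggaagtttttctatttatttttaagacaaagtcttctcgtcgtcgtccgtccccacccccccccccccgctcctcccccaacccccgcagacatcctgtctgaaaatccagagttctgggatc
Hsph1: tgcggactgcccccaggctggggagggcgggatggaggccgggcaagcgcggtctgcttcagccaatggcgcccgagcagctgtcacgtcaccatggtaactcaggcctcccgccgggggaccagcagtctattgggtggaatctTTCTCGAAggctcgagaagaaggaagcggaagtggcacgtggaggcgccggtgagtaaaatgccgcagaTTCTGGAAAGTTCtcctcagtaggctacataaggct
Hspb1: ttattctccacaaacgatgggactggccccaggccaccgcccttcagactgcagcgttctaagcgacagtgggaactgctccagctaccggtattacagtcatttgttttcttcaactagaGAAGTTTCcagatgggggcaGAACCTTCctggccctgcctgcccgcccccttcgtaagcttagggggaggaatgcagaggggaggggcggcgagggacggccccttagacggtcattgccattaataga

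The Hsph1 window held 3 such elements. One lay at bases -105 to -98 from the start, and those at -36 to -29 and at -31 to -24 overlapped by a unit, so that together they made 3 alternating units. The Hspb1 window held 2 elements, at -129 to -122 and at -109 to -102. The Hspa1a window held none, which says only that these letters are not in these 250 bases. Of 33469 promoter windows of the same length, 13.5% held at least 1 element of either kind, 1.75% held at least 2 matches, and 0.663% held 3 alternating units. CCAAT, searched on both strands, was found at 2 places in the Hsph1 window and in neither of the others, and 34.0% of all windows held it. TATAAA, also searched on both strands, was in none of the 3 windows and in 12.9% of all. A match is a description of the letters and not a measured binding site.

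**Figure D1:**
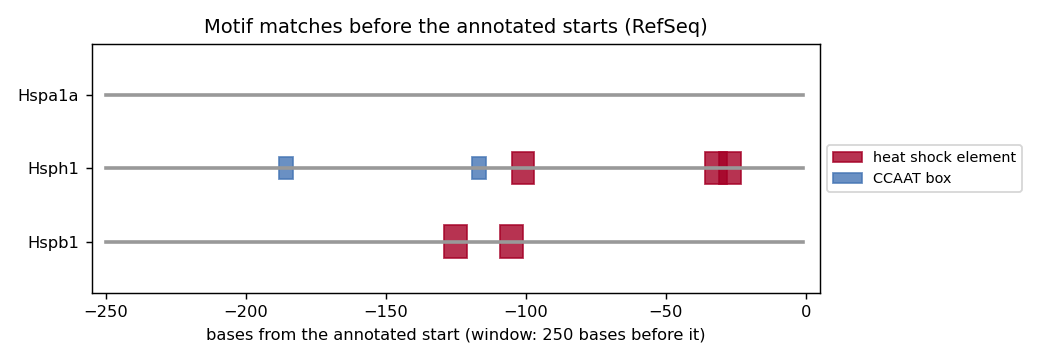
Map of the 250 bases before the annotated starts of Hspa1a, Hsph1 and Hspb1 (RefSeq), with the distance from the start in bases on the horizontal axis, heat shock elements of 2 units in red and CCAAT boxes in blue. Hsph1 has 3 elements, 2 of them overlapping, Hspb1 has 2, and Hspa1a has none in this window.

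The miRNA of the mimics has the mature sequence given below (RefSeq, build GRCr8, chr1:207247903-207247924, minus strand). It is shown because it defines the treatment, and its seed, bases 2 to 8, is in capitals.
rno-miR-483-5p: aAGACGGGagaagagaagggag

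Before the results, 2 libraries must be named. Across the 11798 features that averaged 1 FPKM or more over the libraries, called expressed features below, OGD/R replicate 3 had a Pearson correlation of 0.984 with each of mimics replicates 1 and 2, and of 0.978 and 0.968 with its own group's replicates 1 and 2. Mimics replicate 3 correlated with OGD/R replicates 1 and 2 at 0.985 and 0.982, and with the rest of its own group at 0.982 and 0.981. The number of features above 0 was 17149 in OGD/R replicate 3 and 16506 and 16526 in the rest of its group, and it was 16820 in mimics replicate 3 and 17242 and 17113 in the rest of its group. Groups follow the labels throughout. Whether the labels of these 2 libraries were exchanged was not tested, and an exchange would alter each OGD/R and mimics value that includes them. The differences between groups are therefore given with and without them, while the counts of libraries that do not overlap with control and the correlations over the treated libraries include them. Depth is unknown from FPKM, and in RNA from a whole culture a change in the share of cells that express a gene and a change in RNA per cell cannot be told apart.

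The Hspa1a/Hspa1b pair was at a low level in control and among the more abundant transcripts after OGD/R. ENSRNOG00000050647 was at 1.33, 0.58 and 2.05 FPKM in the control libraries, at 70.3, 42.78 and 523.48 in OGD/R, and at 411.93, 302.57 and 123.12 in mimics, for replicates 1, 2 and 3. ENSRNOG00000045654 was at 4.39, 6.25 and 3.4 FPKM in control, at 213.35, 116.3 and 1421.35 in OGD/R, and at 950.08, 1322.82 and 348.31 in mimics. In both copies every treated library lay far above every control library, replicate 3 was the highest of the OGD/R libraries, and replicate 3 was the lowest of the mimics libraries.

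Hspa1a and Hspa1b are known as near-identical copies that share reads. How the deposited values divide such reads is not settled by the sources used here, so the level of each is uncertain, and their sum is given too. The summed level was 6 ± 0.731 FPKM in control, 796 ± 997 in OGD/R and 1153 ± 605 in mimics (mean ± SD, n = 3 each). By library it was 5.72, 6.83 and 5.45 FPKM in control, 283.65, 159.08 and 1944.83 in OGD/R, and 1362.01, 1625.39 and 471.43 in mimics. The SD after OGD/R was larger than the mean, since replicate 3 was far above the other two. The ratio of the geometric means was 74.4 for OGD/R over control, and 35.6 without OGD/R replicate 3. Even the lowest OGD/R library was 23.3 times the highest control library.

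ENSRNOG00000045654 made up 62.4% to 91.5% of the sum in the control libraries, where the levels were low, and 69.8% to 81.4% in the 6 treated libraries. In the 3 OGD/R libraries the share was 75.2%, 73.1% and 73.1%, although the sum differed 12.2-fold between the lowest and the highest of them. The split between the copies was therefore nearly level over that range, while mimics replicates 1 and 2 had the lowest and the highest share of the treated libraries.

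**Figure D2:**
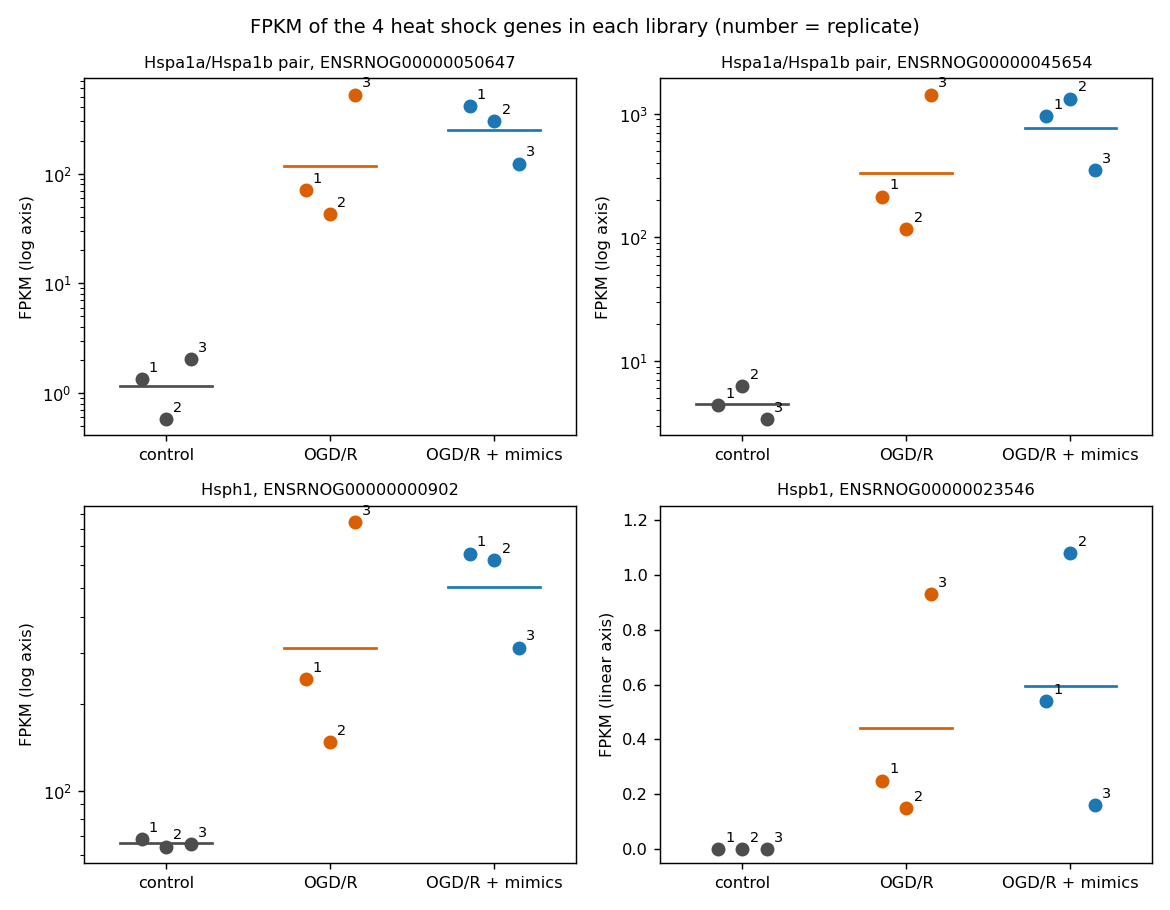
FPKM of the 4 genes in each library by group, on log axes for the Hspa1a/Hspa1b pair and Hsph1 and on a linear axis for Hspb1; points are libraries numbered by replicate, and lines are geometric means, or arithmetic means for Hspb1. All treated libraries lie above all control libraries in each panel, OGD/R replicate 3 lies with mimics replicates 1 and 2, and Hspb1 stays near or under 1 FPKM.

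Hsph1 was already well expressed in control and differed from control by a smaller factor. ENSRNOG00000000902 was at 68.19, 64.27 and 65.75 FPKM in control, at 242.78, 147.18 and 845.17 in OGD/R, and at 659.85, 626.37 and 312.34 in mimics. The control libraries lay close together, and the treated libraries again had replicate 3 as the highest after OGD/R and the lowest with mimics. The group means were 66.1 ± 1.98, 412 ± 378 and 533 ± 192 FPKM (SD, n = 3 each). The ratio of the geometric means of OGD/R and control was 4.71, and 2.86 without OGD/R replicate 3.

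Hspb1 was close to the limit of detection. ENSRNOG00000023546 was listed at 0 in all 3 control libraries, at 0.25, 0.15 and 0.93 FPKM in OGD/R, and at 0.54, 1.08 and 0.16 in mimics. No fold change against control is given, because the control libraries are at 0. Its group means were 0.443 ± 0.424 FPKM in OGD/R and 0.593 ± 0.462 in mimics (SD, n = 3 each), far below those of Hsph1 in each treated library. FPKM is a value per length, so levels of different genes are set side by side as a rough comparison. It is less certain for the pair, whose copies share reads.

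On the scale of log2(FPKM + 0.1), in a limma fit of all 9 libraries, the difference between OGD/R and control was 6.51 (SE 0.89) for ENSRNOG00000050647, 6.14 (SE 0.85) for ENSRNOG00000045654 and 2.24 (SE 0.56) for Hsph1. These were the ranks 1, 3 and 165 among the 11798 expressed features, whose median was -0.23. Among all tested features the ranks were 1, 3 and 276, and they were 3, 6 and 658 without OGD/R replicate 3. Without that library the differences were 5.43, 5.09 and 1.52, and without OGD/R replicate 2 they were 7.23, 6.89 and 2.78. The differences between mimics and control, which share the control libraries, were 7.60 (SE 0.89), 7.36 (SE 0.85) and 2.93 (SE 0.56). Without mimics replicate 3 these were 8.11, 7.92 and 3.28.

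All 3 OGD/R libraries lay above all 3 control libraries in 4 of the 4 genes, as they did in 19.4% of the 19394 features tested. The mimics libraries lay above all control libraries in 4 of the 4 genes and in 22.5% of the features. The genes were chosen for their higher level after OGD/R, so nothing is read from these counts. For the features as a whole, limma with Benjamini-Hochberg adjustment called 46% for OGD/R against control, and 49.6% for mimics against control, at an adjusted p under 0.05.

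Ranks within a library, taken from the same FPKM that chose the genes, describe the same difference. The summed Hspa1a/Hspa1b level ranked 9079, 8540 and 9190 from the highest in the control libraries. In the OGD/R libraries the ranks were 368, 651 and 31, and in the mimics libraries they were 53, 45 and 208. At its highest, in OGD/R replicate 3, the pair made up 0.301% of the summed FPKM of the library, against 0.000845% to 0.00105% in the control libraries. Hsph1 ranked 1718 to 1812 in the control libraries, 120 to 701 in OGD/R and 162 to 317 in mimics. Hspb1 stayed between 11516 and 14193 in the 6 treated libraries.

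**Figure D3:**
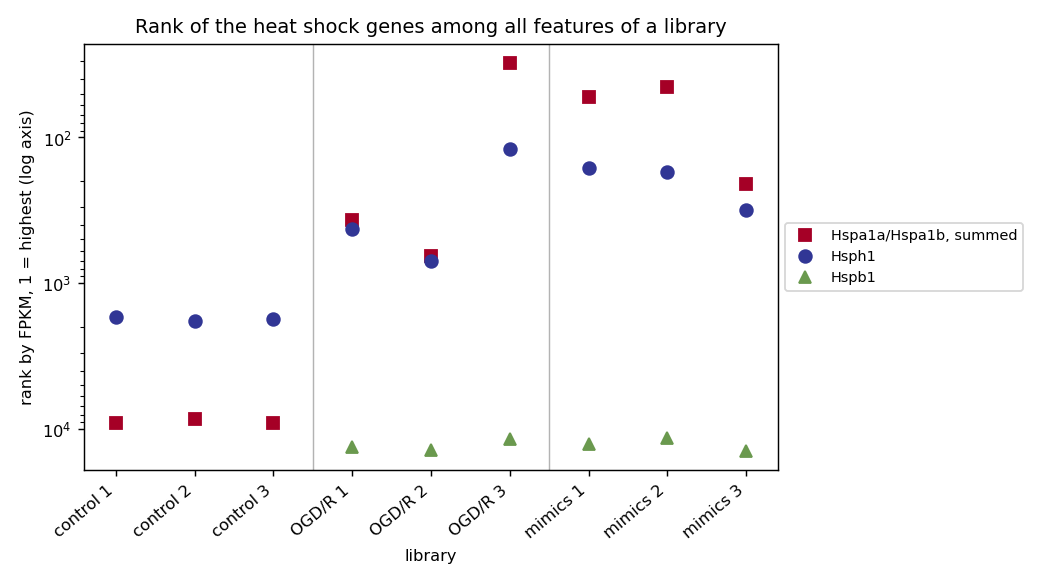
Rank by FPKM among all listed features, with 1 as the highest on an inverted log axis, for the summed Hspa1a/Hspa1b pair, Hsph1 and Hspb1 in each of the 9 libraries. Hsph1 ranks above the pair in the 3 control libraries and below it in all 6 treated libraries, and Hspb1 has no rank in control because it is listed at 0.

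The pair was below Hsph1 in control and above it in each treated library. In FPKM, the pair was 0.0829 to 0.106 times Hsph1 in the control libraries, 1.17, 1.08 and 2.3 times after OGD/R, and 2.06, 2.59 and 1.51 times with mimics. The ratio was higher in the libraries in which both were higher: the 3 libraries above 2 were OGD/R replicate 3 and mimics replicates 1 and 2.

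The second question of the design was what the mimics added to OGD/R. For ENSRNOG00000050647 the log2 difference of mimics against OGD/R was 1.09 (SE 0.89, 95% confidence interval -0.93 to 3.11, adjusted p = 0.822 from limma). For ENSRNOG00000045654 it was 1.21 (SE 0.85, interval -0.72 to 3.14, adjusted p = 0.821 from limma). Hsph1 differed by 0.70 (SE 0.56, interval -0.57 to 1.97, adjusted p = 0.821 from limma) and Hspb1 by 0.37 (SE 0.62, interval -1.03 to 1.78, adjusted p = 0.907 from limma). Among the 11798 expressed features the pair and Hsph1 ranked 39, 31 and 105 by this difference, whose median was -0.02. Among all tested features the ranks were 182, 134 and 617, and they were 1769, 1274 and 4483 without OGD/R replicate 2. Leaving out OGD/R replicate 3 instead gave ranks of 35, 31 and 196, and leaving out mimics replicate 3 as well gave 23, 20 and 161.

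The groups overlapped for each of the 4 genes: the mimics libraries lay above all OGD/R libraries for 0 of the 4, against 4.12% of all features. No difference of mimics from OGD/R passed the test, for these genes or for any of the 19394 features (0% with an adjusted p under 0.05, the smallest being 0.0511 from limma, and 1333 features with an unadjusted p under 0.05). The intervals of the 4 genes reach from a fall to a rise, so the test does not show that the groups were alike. This comparison shares the OGD/R libraries with the one on which the genes were chosen.

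The values depended on which libraries entered. Without OGD/R replicate 3, the log2 differences of mimics against OGD/R were 2.18, 2.27, 1.42 and 0.97 for ENSRNOG00000050647, ENSRNOG00000045654, Hsph1 and Hspb1, with limma adjusted p-values of 0.190, 0.165, 0.158 and 0.409, and the unadjusted 95% intervals of the first 3 lay above 0. Without OGD/R replicate 2, the lowest of its group for all 4 genes, they were 0.37, 0.46, 0.16 and -0.05, and Hspb1 was at -0.14 without mimics replicate 2. Without mimics replicate 3 they were 1.60, 1.77, 1.05 and 0.95.

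Without both OGD/R replicate 3 and mimics replicate 3, the difference was 2.68 (SE 0.53, adjusted p = 0.0491 from limma) for ENSRNOG00000050647 and 2.83 (SE 0.37, adjusted p = 0.0280 from limma) for ENSRNOG00000045654. It was 1.77 (SE 0.21, adjusted p = 0.0257 from limma) for Hsph1 and 1.55 (SE 0.33, adjusted p = 0.0545 from limma) for Hspb1. In that fit 4.32% of 19056 features had an adjusted p under 0.05. Both remaining mimics libraries lay above both remaining OGD/R libraries in 4 of the 4 genes and in 22.5% of the features. These 2 libraries were left out because they resembled the other group, and these genes follow that resemblance. Leaving them out widened the differences and lowered the SEs of all 4 genes. Neither the larger differences nor their adjusted p-values are therefore independent evidence of an effect of the mimics.

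**Figure D4:**
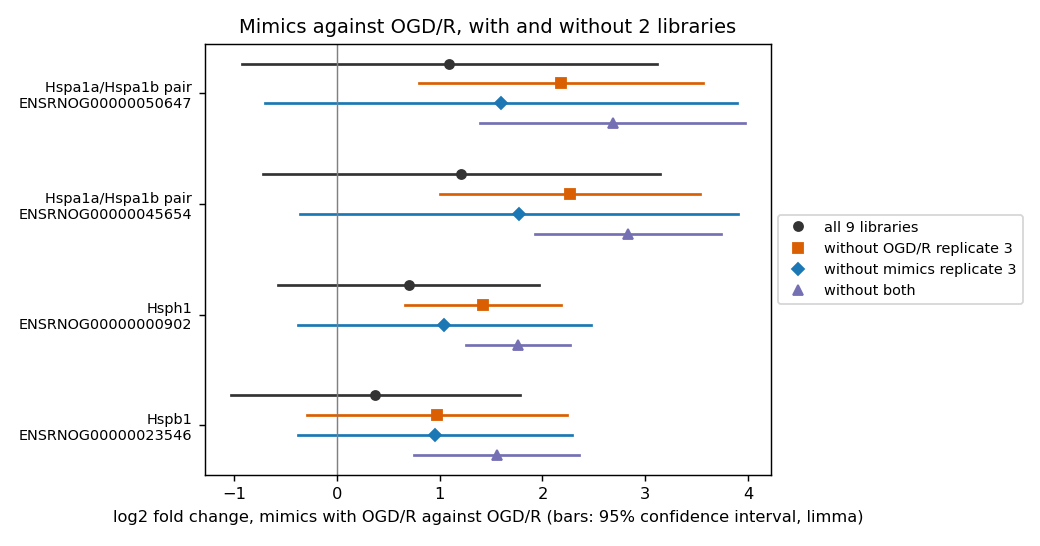
Log2 fold change of mimics with OGD/R against OGD/R for the 4 genes (points) with 95% confidence intervals from limma (bars), in the fit of all 9 libraries and without OGD/R replicate 3, mimics replicate 3 or both. With all libraries the 4 intervals, which are not adjusted for the number of features, include 0. Without both libraries, which were left out because they resembled the other group, the intervals lie above 0.

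The 4 genes placed the 6 treated libraries in almost one order. From the highest to the lowest, ENSRNOG00000050647 and Hsph1 gave OGD/R 3, mimics 1, mimics 2, mimics 3, OGD/R 1 and OGD/R 2. ENSRNOG00000045654 differed only in having mimics 2 before mimics 1, and Hspb1 gave mimics 2, OGD/R 3, mimics 1, OGD/R 1, mimics 3 and OGD/R 2. The 3 highest libraries were thus the same for each gene and mixed both groups. The same 3 libraries were the highest for 13.7% of the 11798 expressed features and the lowest for 26.0% of them, and 1.47% had the full order of ENSRNOG00000050647.

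Within the OGD/R group, replicate 3 was 12.2, 12.2, 5.74 and 6.2 times replicate 2 for ENSRNOG00000050647, ENSRNOG00000045654, Hsph1 and Hspb1, while replicate 1 was 1.64, 1.83, 1.65 and 1.67 times replicate 2. In the mimics group, replicate 3 was 0.299, 0.367, 0.473 and 0.296 times replicate 1. Mimics replicate 3 was 1.75, 1.63 and 1.29 times OGD/R replicate 1 for the pair and Hsph1, and 0.64 times for Hspb1.

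With all 3 libraries of a treated group, the pair and Hsph1 were among the most variable expressed features between replicates. The SD of log2(FPKM + 0.1) over the OGD/R libraries was 1.91 for ENSRNOG00000050647, 1.88 for ENSRNOG00000045654 and 1.3 for Hsph1, ranks 44, 45 and 79 of the 11798 expressed features, whose median SD was 0.16. With mimics the SD was 0.90, 1.00 and 0.60, at ranks 98, 82 and 278, with a median of 0.14. In control Hsph1 had an SD of 0.04, below the median of 0.09, while the low-level pair had SDs of 0.84 and 0.43. Without replicate 3, the log2 difference between OGD/R replicates 1 and 2 was 0.72, 0.87 and 0.72, at ranks 363, 219 and 355, against a median of 0.13. Between mimics replicates 1 and 2 it was 0.45, 0.48 and 0.08, at ranks 1010, 875 and 8459, and Hsph1 was then below the median of 0.14. The ranks with all 3 libraries thus depended on replicate 3. Hspb1, whose mean is under 1 FPKM, had SDs of 1.07 in OGD/R and 1.10 in mimics.

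**Figure D5:**
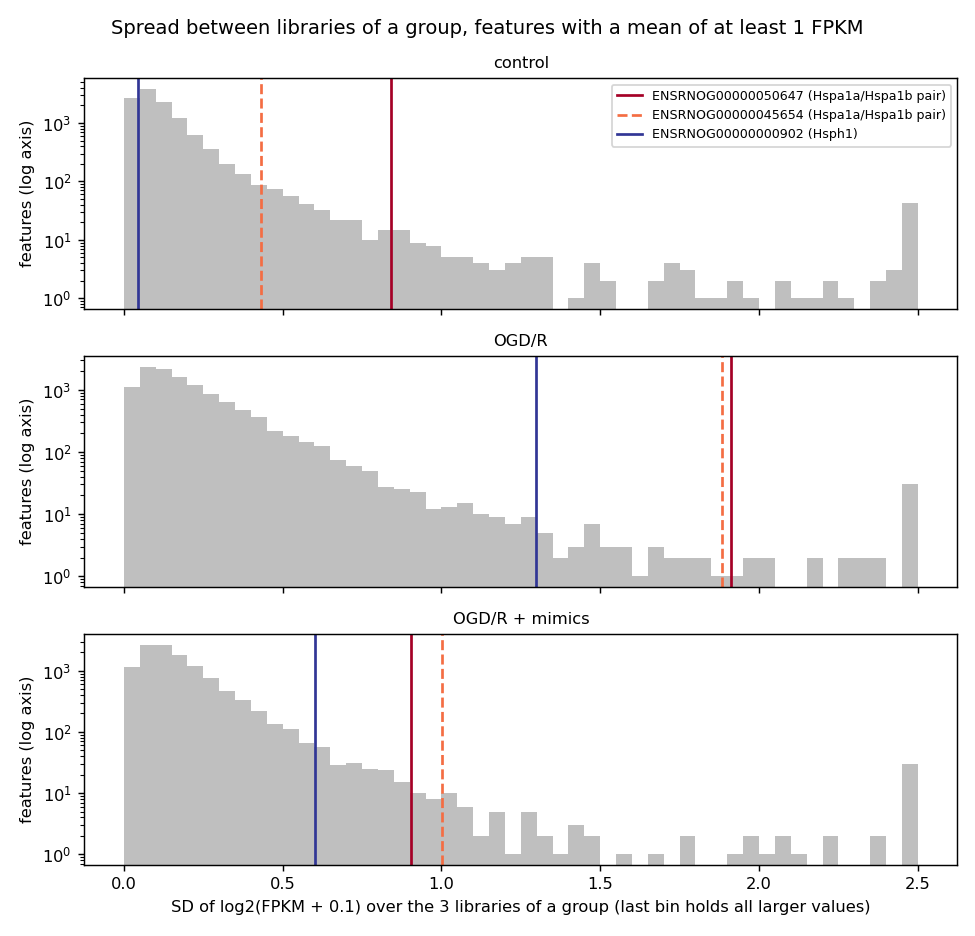
Histograms of the SD of log2(FPKM + 0.1) over the 3 libraries of each group for the 11798 expressed features (log axis for the number of features), with lines at both copies of the Hspa1a/Hspa1b pair and at Hsph1. All 3 lines lie in the right tail after OGD/R and with mimics, and in control Hsph1 lies at 0.04, left of the median.

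Over the 6 treated libraries, Hsph1 followed the summed pair with a Pearson correlation of 0.994 on the log2 scale, and 18 of the 11795 other expressed features had a higher one. Hspb1 had a correlation of 0.913, and 732 features had a higher one. Over all 9 libraries, in which control and treated libraries stand apart, 306 features were more alike to the pair than Hsph1 and 702 more than Hspb1. Over the 6 treated libraries the most alike features were ENSRNOG00000004962 (r = 0.9997) and ENSRNOG00000056141 (r = 0.9989). ENSRNOG00000004962 was at 15.12, 14.61 and 13.6 FPKM in control, at 22.84, 21.29 and 28.33 in OGD/R, and at 27.38, 27.96 and 24.12 in mimics, a much smaller range than that of the pair. ENSRNOG00000056141 was at 0.17, 0.18 and 0.14 FPKM in control, at 0.77, 0.51 and 2.99 in OGD/R, and at 2.15, 2.63 and 1.12 in mimics. Over these 6 libraries a correlation over 0.95 was reached by 419 features, and the median was -0.32. All features share the same 6 libraries, which fall into 2 groups, so these correlations are a description.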

How the data were processed

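RNA-seq of 9 PC12 libraries was used, in groups and replicate numbers from the labels. Per its methods the study removed poly-N, adapter and low-quality reads and estimated expression with RSEM; the authors deposited FPKM values, 1 per feature and library, with 2 decimals. The submitters' processing notes also name Bowtie2 2.3.3.1 and Cufflinks 2.2.1; the build is not given in the sources used here. The labels name more than a single library kit without assigning them. The differentiation agent is not reported here.

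FPKM are not counts, so log2(FPKM + 0.1) was fitted with limma 3.58.1 (R 4.3.3; lmFit, eBayes with trend; 3 groups, 6 residual degrees of freedom), two-sided, with Benjamini-Hochberg adjustment over 19394 features (those at 0 in all 9 libraries were left out); the script was tested on simulated data. The scale understates changes of low genes. Alternatives were other pseudocounts (1, 0.01), filters (mean of 0.1 or 1 FPKM), quantile and upper-quartile scaling, fits of 2 groups, a replicate block, and libraries left out. The members, lists and tests were chosen with earlier results of these data known. Besides the 4 genes, the plan of the tests, and not the choice of the genes, covered the features most alike to the summed pair over 9 and over 6 libraries. Only the latter are named, since the controls stand apart. The planned chaperone lists (71 genes) were not analysed. Promoter windows were searched in RefSeq sequences.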

Additional observations from a re-analysis of the deposited data

How the results depend on the processing

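Against OGD/R, the differences of mimics were recomputed 71 times over the 4 genes. In 27 of these the value could not or did not move, and of the other 44, 39 kept their sign and stayed short of the threshold, although their size varied. Without both OGD/R replicate 3 and mimics replicate 3, the differences of mimics from OGD/R passed the threshold for 3 of the 4 genes. They were 2.68 for ENSRNOG00000050647, 2.83 for ENSRNOG00000045654 and 1.77 for Hsph1, and 823 features were called where 0 were with all libraries. Both libraries were left out because they resembled the other group, so these calls are not independent evidence of an effect of the mimics. Why they resembled it was not tested. Hspb1 turned to -0.05 without OGD/R replicate 2 and to -0.14 without mimics replicate 2, within a range of -0.14 to 0.97 over the fits that left out 1 library. In these fits the other differences of mimics from OGD/R ranged from 0.37 to 2.18 for ENSRNOG00000050647, from 0.46 to 2.27 for ENSRNOG00000045654 and from 0.16 to 1.42 for Hsph1, with limma adjusted p-values of 0.158 to 1 over the 4 genes, and 0 to 11 features were called. Under the settings that kept all libraries, the adjusted p-values were 0.767 to 0.965. A pseudocount of 0.01 called 9 features between mimics and OGD/R, and fits of only the 2 groups called 2. For OGD/R against control, ENSRNOG00000050647 went from 5.72 with a pseudocount of 1 to 6.74 after upper-quartile scaling.

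Quantile and upper-quartile scaling moved the median log2 change after OGD/R of the expressed features from -0.23 to -0.06 and 0.01, and the share of higher calls from 35.1% to 45.2% and 53.4% (from 37.5% to 44.7% and 58.4% for mimics against control). The pair and Hsph1 were higher than in control under each. The replicate block called 8147 features between OGD/R and control (8913 without it) and 0 between mimics and OGD/R, and it left the fold changes as they were. The numbers were not shown to pair the libraries: deviations of libraries with the same number correlated at -0.17, -0.26 and -0.47 for OGD/R and mimics, at 0.05, -0.03 and 0.03 for control and OGD/R, and at 0.06, 0.22 and 0.0042 for control and mimics. Depth is unknown, and the values of Hspb1 lie near or under 1 FPKM.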
